A study of Mus musculus with 12 samples.

Results

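Translation initiation and elongation factors are the proteins that load ribosomes onto messenger RNA and move them along it. Their genes were taken as every protein-coding gene on an autosome whose symbol begins with Eif or Eef, leaving out Eif2ak2. This rule found 65 genes of 55487 in the table, so that X-linked and Y-linked members, among them the genes of the third eIF2 subunit, were outside it. Their messenger RNA was compared between ARG1+ and ARG1- microglia. The 12 RNA-seq libraries came from YARG mice, which carry a yellow fluorescent reporter in the Arg1 locus, at postnatal day 13, with 3 libraries each of ARG1- female, ARG1+ female, ARG1- male and ARG1+ male microglia. Cells came from the basal forebrain and striatum, each library pooled several mice, and the sort took CD206-negative, CX3CR1-positive cells and divided them by the reporter. The paper describes 3 litters per sex, with pooled tissue sorted into both populations, so an ARG1+ and an ARG1- library can come from the same mice. The labels do not tie such libraries together, and the pairing was not fitted. The p-values measure the spread between libraries that were treated as independent.

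Initiation begins when eIF4F binds the cap of the messenger RNA through its cap-binding subunit eIF4E, its scaffold eIF4G and its helicase eIF4A. The small ribosomal subunit, carrying eIF3 and the initiator tRNA held by eIF2, then scans to the start codon, and eIF5B joins the large subunit. eIF2 is recharged by the exchange factor eIF2B and is blocked when stress kinases phosphorylate it. eEF1A brings each aminoacyl-tRNA to the ribosome, eEF1B recharges eEF1A, and eEF2 moves the ribosome on by a codon. Many genes of elongation factors and some of eIF3 subunits belong to the 5 prime TOP class, whose transcripts begin with a C followed by pyrimidines and are regulated by mTORC1.

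Sequence around the start site was taken from RefSeq's promoter table (GRCm38.p6), which held 49 of the 65 genes. The lines below show 50 bases before to 10 bases after the annotated start for 9 genes, 5′ to 3′ on the gene's strand. They are shown as examples of a pyrimidine tract near the start or the core of an ETS site. The first 6 genes were lower in ARG1+ microglia, Eif3l and Eif2b5 held the same motifs and were not called, and Eif4g1 was higher and held neither in this window. Capitals mark a C followed by at least 7 pyrimidines that began within 20 bases of the start, or CCGGAAG on either strand.

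Eef1a1, chr9:78481715-78481774, minus strand: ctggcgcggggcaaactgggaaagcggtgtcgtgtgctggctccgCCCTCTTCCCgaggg

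Eif3f, chr7:108934365-108934424, plus strand: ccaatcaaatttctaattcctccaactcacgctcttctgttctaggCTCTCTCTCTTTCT

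Eif3m, chr2:105017018-105017077, minus strand: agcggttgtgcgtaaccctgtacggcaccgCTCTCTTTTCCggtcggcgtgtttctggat

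Eef1b2, chr1:63176781-63176840, plus strand: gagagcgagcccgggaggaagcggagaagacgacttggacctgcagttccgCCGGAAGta

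Eif2b4, chr5:31193130-31193189, minus strand: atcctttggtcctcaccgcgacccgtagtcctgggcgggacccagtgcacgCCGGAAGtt

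Eif3g, chr9:20898581-20898640, minus strand: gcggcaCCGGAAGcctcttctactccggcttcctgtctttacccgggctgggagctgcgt

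Eif3l, chr15:79075173-79075232, plus strand: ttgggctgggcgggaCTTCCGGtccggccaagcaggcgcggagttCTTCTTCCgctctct

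Eif2b5, chr16:20498767-20498826, plus strand: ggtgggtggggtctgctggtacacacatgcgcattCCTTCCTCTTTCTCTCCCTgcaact

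Eif4g1, chr16:20672677-20672736, plus strand: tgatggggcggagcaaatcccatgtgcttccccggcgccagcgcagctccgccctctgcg

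Over the whole stretch in the table, 250 bases before to 50 after each start, 32.7% of the 49 genes held CCGGAAG on either strand, against 10.1% of 25748 autosomal genes. The pyrimidine tract was found in 22.4% of the 49 and in 16.4% of autosomal genes. Of the 18 matched genes lower in ARG1+ microglia, 7 (38.9%) held the ETS core and 6 (33.3%) the tract. Of the 27 matched genes that were not called, 8 (29.6%) held the core and 4 (14.8%) the tract, and of the 3 higher genes Eif4ebp2 held the core and none held the tract. These motifs were chosen after the promoters had been read. The search made first, for a C exactly at the annotated start followed by 4 pyrimidines, found 1 of 64 promoters of these genes, that of Eif3f, and 823 of 32851 promoters in all. The matches are descriptions of the sequence.

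Total counts per library ranged from 30954399 to 60625170 in ARG1- and from 28356659 to 46569667 in ARG1+ libraries. Arg1 transcripts were not counted in any ARG1- library. They reached at most 1.48 CPM (counts scaled to a common library total with TMM factors) in ARG1+ libraries, of which 2 of 6 held any. In these counts the labels therefore rest on the sort by reporter. The paper also saw few Arg1 reads, and reports that by RT-qPCR on sorted cells Arg1 was restricted to the reporter-positive population. Cx3cr1 was measured at 3113 to 5248 CPM in ARG1- and at 3545 to 5447 CPM in ARG1+ libraries. Of 8 microglia markers 5 were lower and 1 was higher in ARG1+ microglia, with sums of 45144 to 59913 against 35822 to 46489 CPM. Summed neuron markers lay at 4.87 to 29.8 against 5.13 to 18.9 CPM, and summed monocyte and neutrophil markers at 6.19 to 13.4 against 1.48 to 6.43 CPM, with Ly6c2 and Ly6g at 3 counts or fewer in every library. Plac8 of the latter list was lower at a log2 fold change of -2.38. Summed erythroid markers lay at 3.69 to 17.8 against 0 to 3.39 CPM, and Hbb-bt was lower with at most 3 counts in any ARG1+ library. The share of counts on mitochondrially encoded genes was 0.247 to 0.636% in ARG1- and 0.147 to 0.396% in ARG1+ libraries. Of 9 immediate early genes tested 2 were higher, Egr1 without overlap (log2 fold change 1.31, edgeR adjusted p = 0.00825) and Atf3. Oligodendrocyte markers summed to 263 to 383 against 171 to 261 CPM and astrocyte markers to 179 to 224 against 130 to 152 CPM, with 1 of 8 lower in each list. Endothelial markers summed to 29.8 to 58.1 against 44.9 to 83.6 CPM and border macrophage markers to 102 to 139 against 109 to 236 CPM, with overlap. Single genes made up most of 3 sums. They were Slc1a3 for astrocytes (mean 176 in ARG1- and 131 CPM in ARG1+ libraries), Pecam1 for endothelium (36.5 and 53.1 CPM) and Mrc1 for border macrophages (121 and 147 CPM). Mrc1 encodes CD206, against which the cells were sorted, and neither it nor Pecam1 was called. The part of other cells, and of these measures of RNA, in the results was not tested.

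Transcripts of translation factors fell in ARG1+ relative to ARG1- microglia for 25 of the 62 genes tested and rose for 3, by edgeR's quasi-likelihood test with sex as a covariate and a limit of 0.05 on p-values adjusted across the whole table. Of all 16908 genes tested, 9.42% were called lower and 6.44% higher. The 25 genes make up 40.3% of the translation factors, and the 3 genes 4.84%. Populations did not overlap for 21 of the lower genes and 1 of the higher genes, where 6.56% and 3.48% of all genes did not overlap in these directions. The median log2 fold change was -0.31 over the 62 genes and 0.057 over all genes, and 47 of the 62 were fitted below 0. As a share of all counts, the 65 genes took 0.650 to 0.783% in ARG1- libraries and 0.573 to 0.612% in ARG1+ libraries. In bulk samples, fewer cells that express a gene and less of its RNA per cell cannot be told apart.

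**Figure D1:**
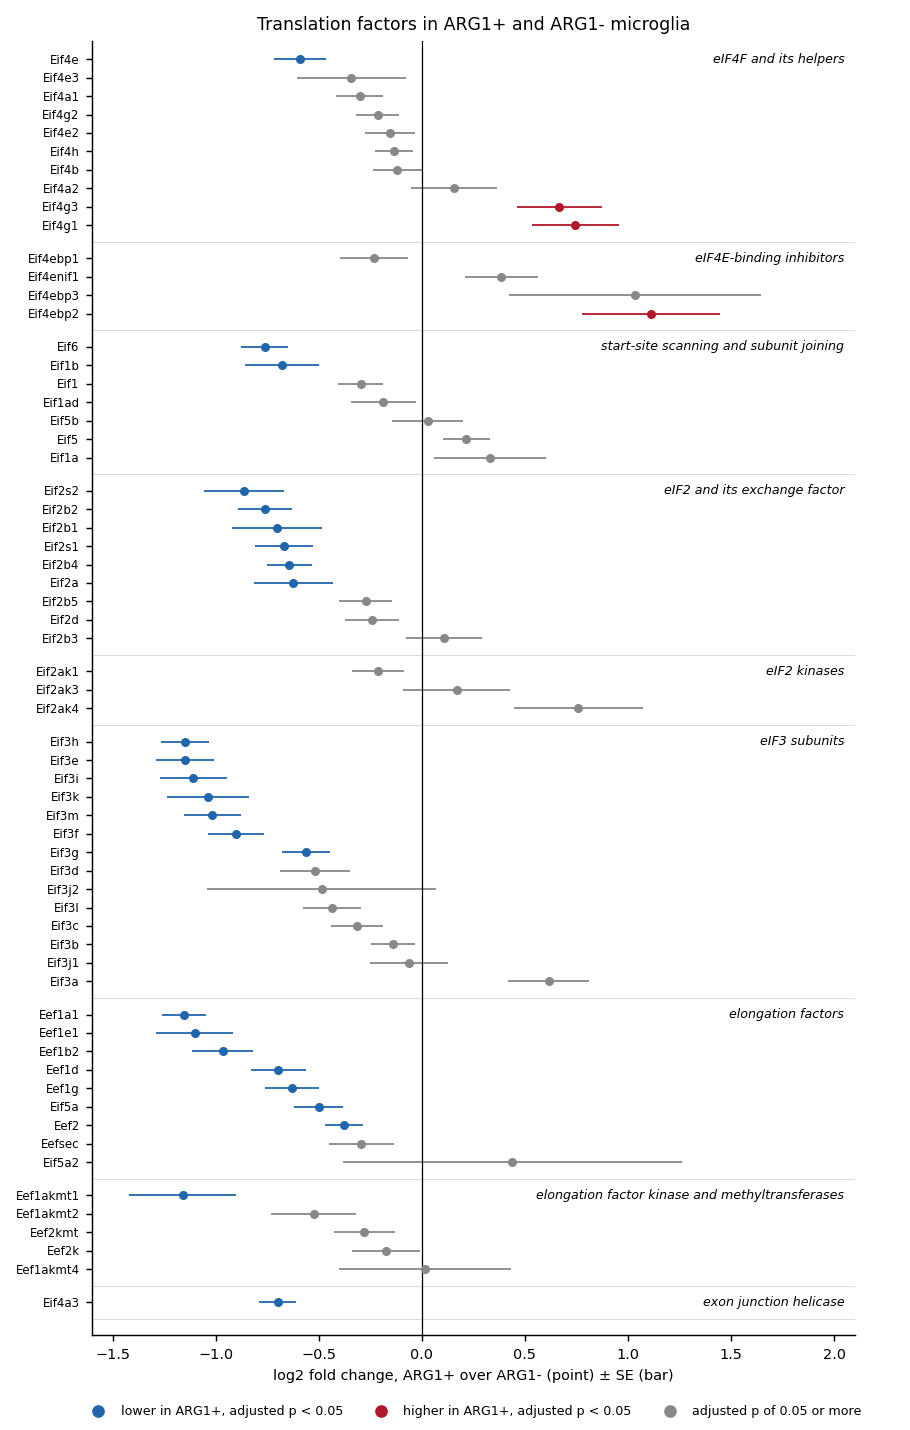
Log2 fold change of the 62 translation factor genes tested, ARG1+ over ARG1- microglia (x axis), by role in translation (rows). Points are fitted values and bars their standard errors from 12 libraries. Genes of eIF2, eIF3 and elongation factors lie mostly to the left of 0, and the 3 genes called higher are in the eIF4F group and among its inhibitors. Of the 62 genes 4.84% were called higher, against 6.44% of all genes tested.

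Gene length moved with the comparison, and this touches every result below. Over 8552 protein-coding genes with a mean of at least 10 CPM, log2 fold change correlated with log2 merged exon length at a Pearson r of 0.540, and over the 62 translation factors at 0.378. These values are across genes, which share the same 12 libraries. For each of these genes the log2 level in a library was taken relative to the gene's mean over the 12 libraries. The median of these deviations was taken for genes under 3 kb and for genes over 6 kb. The first minus the second ran from 0.231 to 0.388 in ARG1- libraries and from -0.588 to 0.0625 in ARG1+ libraries. Retained-intron genes, a list of transcripts often kept in the nucleus, were higher in ARG1+ microglia for 7 of 14, with sums of 2011 to 3751 against 4563 to 6318 CPM. Among genes of at least 10 CPM under 3 kb of exon, 66.7% of 24 translation factors were lower in ARG1+ microglia, against 39.1% of 2109 other protein-coding genes. From 3 to 6 kb these shares were 25.0% of 16 and 12.1%, and over 6 kb 27.8% of 18 and 3.56%. The limits of 3 and 6 kb and of 10 CPM were set after it was seen that short members were lower.

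**Figure D2:**
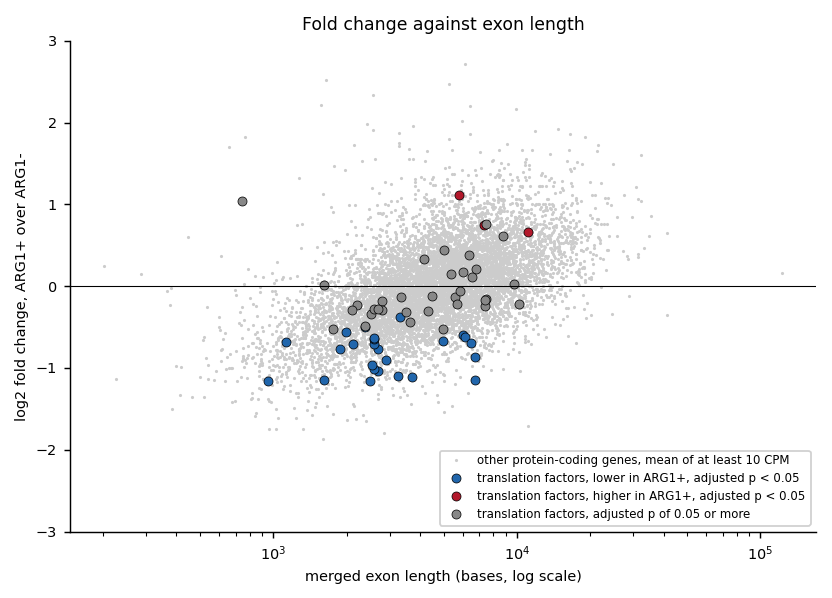
Log2 fold change, ARG1+ over ARG1- microglia (y axis), against merged exon length in bases (x axis, log scale), for translation factors (large points, coloured by call) and other protein-coding genes with a mean of at least 10 CPM (small points; 1 gene lies outside the range drawn). The cloud of all genes slopes upward, and most translation factors called lower lie in its lower part.

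A trend on exon length and GC content, fitted over genes of at least 10 CPM, was then taken out of each library. By the same test 26 translation factors were lower and none higher, where 6.72% of all genes were lower and 5.93% higher. Of the 25 genes, 20 were still lower. The correlation over all 8552 genes then fell to 0.0212. Eef1akmt1, Eif1b, Eif2b1, Eif3g and Eif5a were the 5 that were no longer called, and the 3 higher genes were no longer called either. This correction was chosen after the data were seen. It was the third of 3 versions, of which the first, the planned one, was run without centring and gave 42 lower and 0 higher translation factors while calling 3574 of all genes lower and 497 higher, against 1593 and 1089 with no correction. The second, centred after those counts were seen, gave 26 lower and 1 higher, where 9.26% and 5.29% of all genes were called.

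Genes listed as elongation factors were lower in ARG1+ microglia for 7 of 9 tested. The 7 include Eef1e1, a component of the tRNA synthetase complex that was listed here by its symbol. Eef1a1, which encodes the eEF1A protein that delivers aminoacyl-tRNA, had the highest level per kilobase of exon of all 65 genes. It was measured at 821 CPM in the lowest, 1033 in the median and 1195 in the highest ARG1- library, and at 400, 445 and 530 CPM in ARG1+ libraries. The populations were apart by a wide gap. The log2 fold change was -1.15 ± 0.11 (SE; edgeR adjusted p = 0.000263). Eef1a1 has many processed copies in the genome, and reads that match several places could be lost or split. Its paralogue Eef1a2, the form of neurons and muscle, was not tested and was at most 0.0570 CPM in any library.

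The nucleotide exchange factor of eEF1A was lower in its 3 named subunit genes. Eef1b2, its catalytic beta subunit, lay at 52.4, 75.0 and 89.4 CPM (lowest, median, highest) in ARG1- and at 30.7, 37.0 and 44.8 CPM in ARG1+ libraries. The log2 fold change was -0.97 ± 0.15 (adjusted p = 0.00144). Eef1d, the delta subunit, changed by -0.70 and Eef1g, the gamma subunit, by -0.63 on the same scale. None of the 3 genes overlapped between populations.

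Eef2, the translocase, lay at 331, 386 and 459 CPM in ARG1- and at 265, 293 and 322 CPM in ARG1+ libraries. Its log2 fold change of -0.38 ± 0.093 was the smallest among the genes called lower (adjusted p = 0.0163). Eif5a, which helps ribosomes through difficult peptide bonds and needs the modified amino acid hypusine, lay at 340, 372 and 394 CPM against 206, 269 and 340 CPM, with the 2 populations meeting at 340 without crossing. Its log2 fold change was -0.50 ± 0.12 (adjusted p = 0.0145). The rarer paralogue Eif5a2 ranged from 0.0335 to 10.2 CPM in ARG1- and from 4.10 to 13.2 CPM in ARG1+ libraries and was not called.

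Eef1e1, a component of the complex of tRNA synthetases, lay at 21.0, 28.6 and 37.5 CPM in ARG1- and at 8.72, 13.9 and 15.1 CPM in ARG1+ libraries. The log2 fold change was -1.10 ± 0.19 (adjusted p = 0.00258). Eefsec, the elongation factor for selenocysteine, was not called (-0.29, adjusted p = 0.248). Of the enzymes that modify elongation factors, Eef1akmt1, a lysine methyltransferase of eEF1A, was the gene with the lowest fitted value in the uncorrected fit, within its error of Eef1a1, Eif3h and Eif3e. It lay at 17.7, 19.5 and 30.1 CPM against 6.18, 9.80 and 14.6 CPM, a log2 fold change of -1.16 ± 0.26 (adjusted p = 0.0103), and gave -0.57 (adjusted p = 0.137) after the 10-CPM length and GC trend was taken out. Eef2k, the kinase that inactivates eEF2, gave -0.17 and was not called. The methyltransferase genes Eef1akmt2, Eef1akmt4 and Eef2kmt were not called either.

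**Figure D3:**
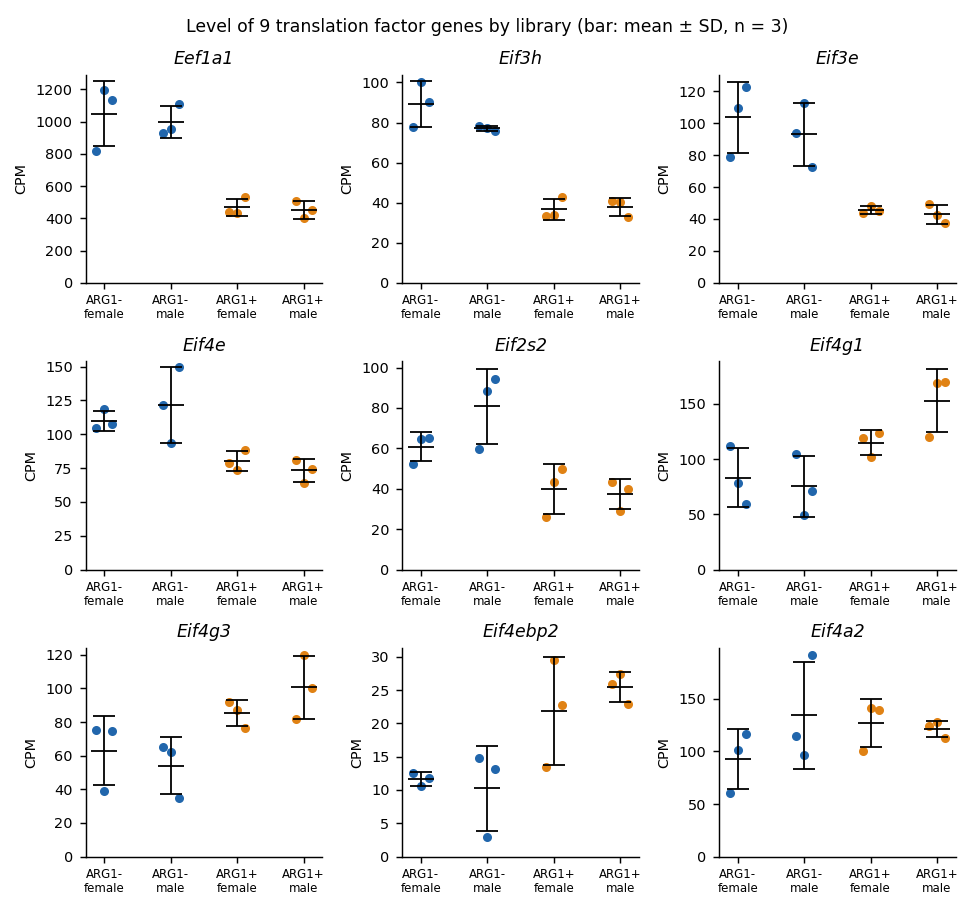
Level in CPM (y axis, from 0) of 9 translation factor genes in each of the 12 libraries (points), by population and sex (x axis), with the mean ± SD of 3 libraries. Eef1a1, Eif3h and Eif3e show ARG1+ libraries below all ARG1- libraries, Eif4g3 shows the opposite order, and Eif4a2 overlaps.

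Of 14 genes of eIF3 subunits, 7 were lower in ARG1+ microglia, none was higher and 13 were fitted below 0. eIF3 is the largest initiation factor, and its subunits hold the small ribosomal subunit and the messenger RNA together. The 7 genes did not overlap between populations. Eif3h was measured at 75.7, 77.9 and 100.1 CPM in ARG1- and at 32.8, 37.2 and 42.8 CPM in ARG1+ libraries. Its log2 fold change was -1.15 ± 0.12 (adjusted p = 0.000275). Eif3e lay at 72.6, 102 and 122 CPM against 37.5, 44.3 and 49.2 CPM (log2 fold change -1.15 ± 0.14, adjusted p = 0.000578).

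A like gap was seen for 4 further subunits. Eif3i lay at 44.1, 60.8 and 69.5 CPM in ARG1- and at 22.3, 25.5 and 34.6 CPM in ARG1+ libraries (log2 fold change -1.11 ± 0.16). Eif3k lay at 55.5, 67.1 and 80.1 against 20.7, 32.5 and 45.5 CPM (-1.04 ± 0.20). Eif3m lay at 85.5, 109 and 131 against 44.3, 52.2 and 68.0 CPM (-1.02 ± 0.14). In each of these 3 genes the highest ARG1+ library was below the lowest ARG1- library. Eif3f lay at 55.4, 79.4 and 91.6 against 33.5, 41.4 and 48.4 CPM (-0.90 ± 0.14), and Eif3g, which binds RNA during scanning, changed by -0.56.

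The subunits with PCI or MPN domains, which form the octamer core of mammalian eIF3, were lower for 5 of 8 genes, and the remaining subunits for 2 of 6, a grouping made after the values were seen. Eif3a, the large scaffold of the complex, was fitted above 0, at a log2 fold change of 0.61 ± 0.19 (adjusted p = 0.0503). It lay at 53.3, 78.7 and 114 CPM in ARG1- and at 109, 124 and 152 CPM in ARG1+ libraries, which overlapped. Eif3l (-0.44, adjusted p = 0.0521) and Eif3d (-0.52, adjusted p = 0.0571) also lay just outside the limit. For Eif3d, 43.3% of its exonic bases were shared with an antisense gene, and the kit does not mark strand. Eif3b, Eif3c, Eif3j1 and Eif3j2 were not called, and the near-identical Eif3j1 and Eif3j2 could exchange reads.

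**Figure D4:**
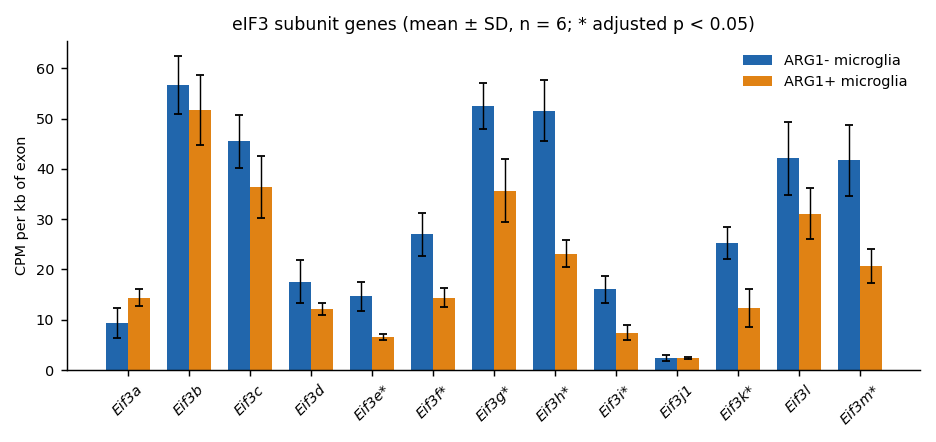
Level of 13 eIF3 subunit genes in CPM per kilobase of merged exon (y axis, from 0) in ARG1- and ARG1+ microglia, as the mean ± SD of 6 libraries each. Asterisks mark the 7 genes with an adjusted p under 0.05. Eif3j2, with at most 0.374 CPM, is left out, and Eif3a is the gene whose ARG1+ bar is the taller, and it did not pass the test.

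Per kilobase, the order of the eIF3 subunits differed between populations. Eif3b was highest in both, at 56.7 ± 5.70 (SD, n = 6) CPM per kilobase in ARG1- and 51.7 ± 6.94 in ARG1+ microglia. Eif3g and Eif3h were within the spread of Eif3b in ARG1- microglia, at 52.5 ± 4.48 and 51.6 ± 6.06. In ARG1+ microglia they lay at 35.7 ± 6.31 and 23.2 ± 2.74 CPM per kilobase, below Eif3b by more than these spreads. Both are shorter than Eif3b, with 1984 and 1612 against 3346 bases of exon. After the 10-CPM length and GC trend was taken out, Eif3g gave -0.25 (edgeR adjusted p = 0.0707), Eif3h -0.67 and Eif3b -0.10.

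The list of eIF2 and its exchange factor eIF2B also held Eif2a and Eif2d, which are subunits of neither. Of its 9 genes 6 were lower (66.7%, against 9.42% of all genes tested), of which Eif2a and Eif2b1 were near the limit. Eif2s1, the alpha subunit that stress kinases phosphorylate, lay at 89.8, 128 and 139 CPM in ARG1- and at 52.3, 79.0 and 94.9 CPM in ARG1+ libraries, with some overlap. Its log2 fold change was -0.67 ± 0.14 (adjusted p = 0.00813). Eif2s2, the beta subunit, lay at 52.4, 64.9 and 94.4 against 26.2, 41.5 and 49.9 CPM (-0.86 ± 0.19, adjusted p = 0.0110).

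Of the 5 subunits of eIF2B, 3 were lower. Eif2b2 (log2 fold change -0.76) and Eif2b4 (-0.64) did not overlap between populations, and Eif2b1 (-0.70, adjusted p = 0.0464) did. Eif2b5, the catalytic subunit, gave -0.27 and Eif2b3 0.11, and neither was called. Eif2a, a separate protein that can also bring initiator tRNA, was lower at -0.62 (adjusted p = 0.0455), and Eif2d was not called. When each library was left out in turn, Eif2a passed in 3 and Eif2b1 in 1 of 12 fits. Both also lost the call with DESeq2 size factors, upper-quartile factors, no filter and a term for libraries numbered 13 to 16, at adjusted p-values of 0.0517 to 0.0864.

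None of the 3 eIF2 kinase genes was called, at unequal fitted values. Eif2ak1, the haem-regulated kinase, gave -0.21 ± 0.13, Eif2ak3, the kinase PERK of the endoplasmic reticulum, 0.17 ± 0.26, and Eif2ak4, the amino acid sensor GCN2, 0.76 ± 0.31 (adjusted p = 0.127). Eif2ak4 ranged from 9.27 to 35.6 CPM in ARG1- and from 19.7 to 44.9 CPM in ARG1+ libraries, which overlapped.

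Among genes of the cap-binding complex and its helpers, 1 of 10 was lower in ARG1+ microglia and 2 were higher. Eif4e, the cap-binding protein, lay at 93.3, 113 and 149 CPM in ARG1- and at 64.2, 76.8 and 88.1 CPM in ARG1+ libraries. Its log2 fold change was -0.59 ± 0.13 (adjusted p = 0.00798). Its paralogues Eif4e2 (-0.16) and Eif4e3 (-0.34) were not called, and Eif4e1b had no count in any library.

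The scaffold genes went the other way for 2 of 3 paralogues. Eif4g1 lay at 49.7, 75.0 and 112 CPM in ARG1- and at 102, 122 and 170 CPM in ARG1+ libraries (log2 fold change 0.74 ± 0.21, adjusted p = 0.0322). Eif4g3 lay at 34.5, 63.9 and 75.1 against 76.6, 89.7 and 120 CPM (0.67 ± 0.21, adjusted p = 0.0467). The populations overlapped for Eif4g1 and were narrowly apart for Eif4g3. Eif4g2, which lacks the eIF4E-binding part and was among the 5 highest genes per kilobase, lay at 903, 1001 and 1231 against 707, 882 and 1033 CPM and was not called (-0.22 ± 0.11, adjusted p = 0.199). After the 10-CPM length and GC trend was taken out, the values were 0.41 for Eif4g1, 0.19 for Eif4g3 and -0.52 for Eif4g2, of which Eif4g2 was called lower.

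The helicase genes Eif4a1 (-0.30 ± 0.11, adjusted p = 0.0901) and Eif4a2 (0.15 ± 0.21) and their helpers Eif4b and Eif4h were not called. Eif4a1 lay at 186, 230 and 292 CPM in ARG1- and at 175, 189 and 200 CPM in ARG1+ libraries, and Eif4a2 at 60.9, 108 and 192 against 101, 126 and 141 CPM. The related Eif4a3, a core protein of the exon junction complex, lay at 175, 193 and 214 against 108, 117 and 136 CPM without overlap. Its log2 fold change was -0.70 ± 0.088 (adjusted p = 0.000642).

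Among inhibitors that bind eIF4E, Eif4ebp2 was higher in ARG1+ microglia. It lay at 2.88, 12.2 and 14.7 CPM in ARG1- and at 13.4, 24.4 and 29.5 CPM in ARG1+ libraries (log2 fold change 1.11 ± 0.33, adjusted p = 0.0413). Only the lowest ARG1+ library reached into the ARG1- range. Eif4ebp1, at 15.7 to 21.3 against 11.6 to 18.8 CPM, gave -0.23 ± 0.17. Eif4ebp3, at most 3.55 CPM, shared 67.3% of its exonic bases with another gene, and neither it nor Eif4enif1, which carries eIF4E into the nucleus, was called.

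The fitted values of the 3 higher genes changed little without any 1 library, but their adjusted p-values crossed the limit. When each library was left out in turn, Eif4g1 passed in 4 of 12 fits and Eif4g3 and Eif4ebp2 in 3 of 12. Their log2 fold changes in these fits ran from 0.61 to 0.90, from 0.56 to 0.76 and from 0.89 to 1.26. With a term for libraries numbered 13 to 16, Eif4g1 kept the call, and Eif4g3 (adjusted p = 0.0563) and Eif4ebp2 (adjusted p = 0.0520) lost it. Of the 25 lower genes, 21 passed in all 12 fits, Eif5a in 10, Eif1b in 4, Eif2a in 3 and Eif2b1 in 1. Over all translation factors these 12 fits gave 0 to 3 higher genes, where 3.89% to 6.27% of all genes were higher. They gave 21 to 25 lower genes, where 5.83% to 8.73% of all genes were lower. Some of the higher ones were other genes. They were Eif2ak4 and Eif3a beside Eif4g3 without ARG1- female replicate 13, Eif4enif1 beside Eif4g3 without ARG1+ female replicate 15, and Eif3a alone without ARG1- male replicate 14. There were 0 higher genes without ARG1- female replicate 2, ARG1+ male replicate 12 or ARG1+ male replicate 16, and 1 without ARG1+ female replicate 7 or 8, ARG1- male replicate 6 or 14, or ARG1+ male replicate 11.

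For start-site selection and subunit joining, 2 of 7 genes were lower (28.6%, against 9.42% of all genes tested). Eif6, which keeps the large subunit from joining too early, lay at 96.6, 105 and 111 CPM in ARG1- and at 50.1, 60.4 and 77.4 CPM in ARG1+ libraries (log2 fold change -0.76 ± 0.11, adjusted p = 0.00130). Eif1b, at 52.3, 76.0 and 98.5 against 38.5, 46.1 and 56.4 CPM, overlapped and gave -0.68 ± 0.18 (adjusted p = 0.0224). Its paralogue Eif1, the fidelity factor of start codon choice, gave -0.30 ± 0.11 (adjusted p = 0.0892) at 124 to 171 against 103 to 146 CPM. Eif1a, Eif1ad, Eif5 and Eif5b were not called.

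The genes of the 5 prime TOP class were lower for 8 of 9, with a median log2 fold change of -0.90. These were Eef1a1, Eef1b2, Eef1d, Eef1g, Eef2, Eif3e, Eif3f and Eif3h, all without overlap between populations. Eif4b, the remaining member, gave -0.12 ± 0.12. Membership came from a list of genes, and a pyrimidine tract near the annotated start was not required. The longest tract there was 15 bases in Eif3f and 10 in Eef1a1. It was 7 in Eef2 and Eif4b and 4 in Eef1b2, under the limit of 8. Eef1d, Eef1g, Eif3e and Eif3h were not among the 49 genes with promoter sequence, so their starts were not examined. Several of these genes are short, and the 8 stayed lower after the 10-CPM length and GC trend was taken out, with smaller changes for most. The median over the 9 genes was then -0.67, with Eif3h at -0.67, Eef1b2 at -0.62 and Eef1g at -0.40.

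Of 65 other genes of the translation machinery tested, in 5 lists, 8 (12.3%) were lower and 3 (4.62%) higher in ARG1+ microglia, shares near the 9.42% and 6.44% of all genes. In the list of termination, recycling and poly(A)-binding genes, Mcts1, a reinitiation factor, was lower at -0.83 ± 0.17. Tpt1 was lower at -0.82 ± 0.15, and Paip2, an inhibitor of the poly(A)-binding protein, at -0.75 ± 0.14. Of the 20 genes tested in this list 15 were not called, among them Pabpc1 (-0.16 ± 0.12). Larp1, which binds TOP transcripts and holds back their translation, was higher at 0.72 ± 0.15 (adjusted p = 0.00736), and Larp4 at 0.65 ± 0.16. In the mTORC1 list 1 of 16 genes was called, Sesn1, at -0.46 ± 0.089. In the integrated stress response list Phgdh, an enzyme of serine synthesis, was lower at -0.90 ± 0.13, and Atf3, which is also an immediate early gene, was higher at 0.99 ± 0.30 (adjusted p = 0.0401). Of the enzymes that make diphthamide on eEF2 and hypusine on eIF5A, Dnajc24 was lower at -0.70 ± 0.19 and Dohh at -0.57 ± 0.16. Mtif3 was the only gene called of 10 mitochondrial translation factors, at -0.45 ± 0.11.

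The comparison was repeated within each sex. In females 16 translation factors were lower and none was higher, where 4.16% and 2.60% of all genes were called. In males 14 were lower and none was higher, where 3.10% and 2.03% of all genes were called. At an unadjusted p under 0.05, 34 genes passed in females and 29 in males in either direction, where 22.9% and 22.8% of all genes did. Of the genes lower in a sex, 10 were lower in both. The 28 genes called over both sexes had the same sign in females and males. They were called from these same libraries, so the shared sign is no separate evidence. For the genes without overlap (21 lower and 1 higher) it was fixed in advance.

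**Figure D5:**
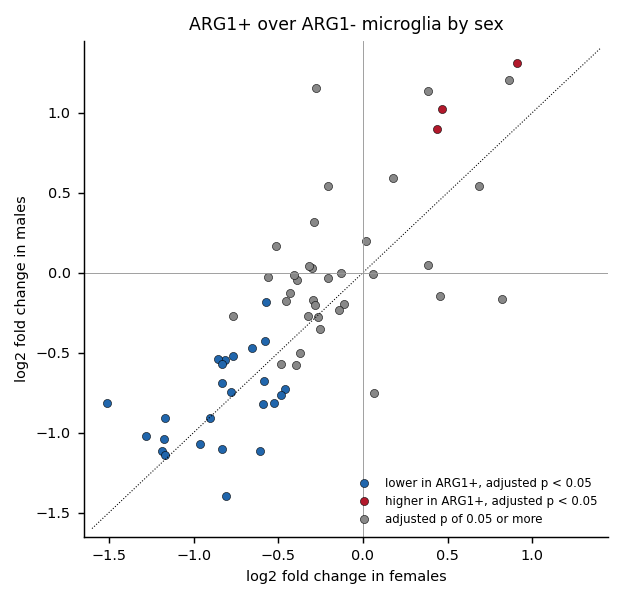
Log2 fold change, ARG1+ over ARG1- microglia, in females (x axis) and males (y axis) for the 62 translation factor genes tested, coloured by the call over both sexes. The dotted line marks equal values. The 28 coloured points lie in the lower left or the upper right corner, and they were called from the same libraries that are drawn.

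The counts within a sex rested on few libraries. In females they ran from 3 to 12 lower genes when a library was left out, with 3 without ARG1+ female replicate 7, 4 without ARG1+ female replicate 8, 5 without ARG1- female replicate 2, and 8 without ARG1- female replicate 13 or ARG1+ female replicate 15. In males they ran from 0 to 16, with 0 without ARG1+ male replicate 12 or 16, 4 without ARG1- male replicate 6, 5 without ARG1- male replicate 14 and 9 without ARG1- male replicate 5.

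No translation factor was called for a difference between the sexes in the ARG1 effect, and 2 of 62 passed at an unadjusted p under 0.05 by edgeR, where 9.32% of all genes did. The smallest p was that of Eef2, which changed by -0.57 in females and by -0.18 in males (adjusted p of the difference = 0.491). Between females and males no translation factor was called by edgeR in either population. In ARG1- microglia 2 passed at an unadjusted p under 0.05, where 1692 of all 16908 genes did and 0.0355% were called lower and 0.0591% higher in females. In ARG1+ microglia 1 passed, where 3.12% of all genes did and 0.0237% were called lower and 0.0118% higher. DESeq2 called 1 in ARG1- and 0 in ARG1+ microglia.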

How the data were processed

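RNA was amplified with the SMART-Seq v4 kit and made into Nextera XT libraries, which do not mark strand. The authors aligned reads with STAR 2.6.1d to GRCm38 and counted them with featureCounts 1.5.1. The deposited values are raw counts per gene, without normalization. Symbols, exon lengths and gene types came from GENCODE M21, which matched 55227 identifiers. Counts were filtered with filterByExpr, scaled by TMM and tested with edgeR 4.0.16 (quasi-likelihood, sex as covariate, Benjamini-Hochberg over 16908 genes). Sex contrasts used 4 group means. A gene with 3 counts in a library lies at 0.0495 to 0.106 CPM, a limit that covers counting error only. Replicate libraries of a group differed by 44.4 to 135 times their degrees of freedom in a chi-square of counts, so each was counted once. Symbols were listed by role; library values are given for the called genes of largest change, the 5 highest genes per kilobase and named paralogues. The members and lists were chosen with earlier results of these data known. Of the 65 genes, 29 share exonic bases with another gene. Alternatives were other scalings, filters and covariates, DESeq2 1.42.0, offsets for exon length and GC content (mgcv 1.9.3), and leaving out libraries. The scripts were tested on simulated data.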

Additional observations from a re-analysis of the deposited data

Results flagged for a closer look

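Eif4ebp2 was measured at 2.88 CPM (86 counts) in ARG1- male replicate 6, where the nearest of the other 5 ARG1- libraries lay at 10.5 CPM, a gap of 0.646 of the whole range and above Dixon's limit for 6 libraries. It was the only 1 of 64 groups of libraries so marked, where chance would mark 3.20. Without this library Eif4ebp2 was still called higher in ARG1+ microglia, as the only translation factor.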

How the results depend on the processing

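No paired analysis was possible because the groups share no replicate number in the labels. Of 918 values of single genes under the alternatives, 796 kept direction and side of the limit, 102 lost the call, 12 gained it and 8 changed sign. The lower translation factors numbered 22 to 27 under other scalings, filters, DESeq2, ARG1 status alone and a term for libraries numbered 13 to 16, and the higher ones 2 to 4. Of all genes, 3.70% to 13.5% were called lower and 3.36% to 11.4% higher under these settings. The term for libraries numbered 13 to 16 kept Eif4g1 of the 3 higher genes, added Eif3a, and lost Eif4g3, Eif4ebp2, Eif2a and Eif2b1. With the 8 libraries numbered 1 to 12 alone, 8 were lower (Eef1a1, Eif3e, Eif3f, Eif3h, Eif3i, Eif3k, Eif3m and Eif4a3). In the same fit 2 were higher (Eif2ak4 and Eif3a), so that 0 of the 3 higher genes held. Of all genes, 1.93% were lower and 1.76% higher in that fit. Of other translation genes 1 was lower and 0 higher, and fewer samples were fitted. Within libraries 13 to 16, the 25 lower and 3 higher genes had the same order in both sexes. These libraries were among the 12 that gave the calls, so this is no separate check. For the genes without overlap (21 lower and 1 higher) the order was fixed in advance.

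The length and GC correction was run in 3 versions. The first, the planned one, fitted over all genes tested without centring, called 42 translation factors lower and 0 higher, and 20 other translation genes lower and 1 higher. It also moved the median of all genes from 0.057 to -0.258 and called 3574 genes lower and 497 higher, against 1593 and 1089. After these counts were seen a centred version was added. It gave 26 lower and 1 higher (Eif4g1), where 9.26% and 5.29% of all genes were called. In it 23 of the 25 were still lower, but r over genes was still 0.347. The third, fitted over genes of at least 10 CPM, was added because of that. It gave 26 lower and 0 higher, where 6.72% and 5.93% of all genes were called. Of the 25 genes, 20 were lower in all 3 versions, and the number of higher genes depends on the version.

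Sign changes were Eif2ak3 at -0.062 and Eif5a2 at -0.015 with libraries 1 to 12 alone; Eif1 at 0.060, Eif2ak3 at -0.028, Eif4e3 at 0.025 and Eif4ebp1 at 0.14 with the 10-CPM trend; and Eif2ak3 at -0.19 and Eif4a2 at -0.18 without centring. None of these was called in either fit. Leaving out each library gave 21 to 25 lower and 0 to 3 higher translation factors, 5 to 8 lower and 2 to 3 higher other translation genes (5 without ARG1+ male replicate 12 or 16), 3 to 12 lower in females, and 0 to 16 lower and 0 to 2 higher in males. In males, 7 were lower with no filter and 0 with the 6 male libraries alone, and 2 were higher with at least 10 counts in every library and 3 by DESeq2. DESeq2 called 1 higher in females and 1 between the sexes in ARG1- microglia. The cause was not tested.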
